A study of Mus musculus with 9 samples.

Results

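The enzymes that make and break down polyamines were followed in mouse dorsal root ganglia (DRG) after a nerve injury: the arginases Arg1 and Arg2, ornithine decarboxylase Odc1, its inhibitors Oaz1 and Oaz2, the antizyme inhibitor Azin1, and Amd1, Srm, Sms and Sat1. Their probes were found by the gene names, older symbols and RefSeq accessions that the array files list. The 10 genes were chosen as a pathway, with earlier results of these data known. They are 10 of 27670 genes or transcripts named on the array and have 22 of its 41174 probes, and all 22 probes passed the filter on dim signals. The study measured total RNA from whole L3/L4 DRG, the ganglia that hold the cell bodies of sensory neurons with axons in the sciatic nerve. The injured group holds 5 arrays of DRG from adult mice whose sciatic nerve had been transected 3 days before, and the uninjured group holds 4 arrays labelled as control. The source label of the control samples also carries the transection text, and the groups follow the treatment label. All 9 samples are labelled jun.wt and cre.neg, so that injured and uninjured mice alike carried wild-type Jun and no Cre. The strain, sex and exact age, and how many animals went into each array, are not given in the sources used here. The methods describe uninjured DRG of the other side as controls for other assays after nerve crush, and for the arrays they name only DRG without injury. Whether the array controls came from injured mice is thus not given, and the p-values therefore measure the spread between these samples. The labels and the methods give 3 days, while the results text of the study names an earlier time and the series design names L4 alone.

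Polyamines are small positively charged molecules that bind RNA and DNA and are needed for growth and protein synthesis. Arginase splits arginine into urea and ornithine, ornithine decarboxylase turns ornithine into putrescine, and spermidine and spermine are made from putrescine with aminopropyl groups that come from decarboxylated S-adenosylmethionine. The antizymes bind ornithine decarboxylase, direct it to the proteasome and slow polyamine uptake, and the antizyme inhibitors resemble the decarboxylase and take antizyme away from it. In sensory ganglia the pathway is known for arginase I, which has been linked to axon growth after a conditioning lesion.

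Each value is a log2 ratio of the DRG sample, labelled with Cy5, over a universal mouse reference RNA, labelled with Cy3, on the same array. A log2 fold change is the injured mean minus the uninjured mean of these ratios. Over all probes, limma called 23.5% different at an adjusted p under 0.05, 10.5% higher and 13% lower after injury, and counted by the brightest probe of each gene the shares were 24.9% called and 11.2% called higher. Between 71.0% and 78.9% of the spots of an array were well above background in Cy5, and the median Cy5 signal over local background lay between 149.6 and 178.9 on uninjured and between 108.8 and 191.9 on injured arrays. Of the 3 slides used, 1 carried 3 uninjured arrays, another 1 uninjured and 3 injured arrays, and the third 2 injured arrays. Slide and injury were therefore largely confounded, and with slide as a fixed term, where each value is the difference within the shared slide, 4.83% of all probes were called. Injured array 2 carried 20 of the 29 spots flagged for an uneven local background, none of them a spot of the 10 genes.

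The tissue was checked on fixed marker lists. All 8 nerve injury markers rose, from Gap43 with a log2 fold change of 0.62 to Atf3, an injury-induced transcription factor, with 5.14 (limma adjusted p under the threshold for each). Of 12 sensory neuron markers all were well above background on at least 4 arrays and 1, Isl1, fell, with a log2 fold change of −0.49 (limma adjusted p = 0.000263). Skeletal muscle markers were raised on 2 injured arrays, with a list mean 1.97 above the uninjured mean on injured array 2 and 3.37 above it on injured array 4, against −0.11 to 0.35 on the other injured arrays. Of the 8 muscle markers limma called 0, with 1 higher at an unadjusted p under 0.05 and 0 called without limma's pooling of variances. The neutrophil list was also highest on these arrays, at 3.18 and 1.85. Of 4 red blood cell markers tested limma called 0, with 3 higher at an unadjusted p under 0.05 and 0 without the pooling, and their list mean was 1.42, 0.71 and 1.03 on injured arrays 2, 4 and 5 against −0.03 and 0.15 on the other injured arrays. Of the Schwann cell (6 markers) and fibroblast (5 markers) lists limma called 0, with 2 and 0 at an unadjusted p under 0.05 and 0 without the pooling. Glul rose among 5 satellite glia markers, by 0.78, and Birc5 among 6 markers of dividing cells, by 0.36, and no other marker of these lists was called. The part of these cells in the results was not tested. Where a call named below was lost without injured arrays 2 and 4, the value without them is given.

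The data showed that 5 of the 10 genes had higher mRNA ratios in injured DRG: Odc1 (2.78-fold), Azin1 (2.60-fold), Arg2 (1.49-fold), Oaz2 (1.35-fold) and Arg1 (1.28-fold). The Arg1 fold, and with it the place of Arg1 among the 5, moved with the offset added to the intensities, since its spot was dim and passed the filter with 5 injured and 2 uninjured arrays. The probes of the other 9 genes were well above background in Cy5 on all 9 arrays. None of the 10 fell (0 lower with limma, 0 at an unadjusted p under 0.05 and 0 without limma's pooling of variances). The 5 called genes compare with 24.9% of all genes called and 11.2% called higher and 13.6% called lower, and in these 5 genes every injured array lay above every uninjured array, as in 10.9% of all genes. By probe, 12 of the 22 were called, all of them higher, against 10.5% of all probes, and the same 12 were the probes on which every injured array lay above every uninjured array, against 10.1% of all probes. The 12 include all 3 probes of Odc1, all 3 of Azin1 and all 4 of Oaz2. Probes of the same gene are repeat measures, so the count by probe is not a count of independent results. Arg1 is in these counts by gene and by probe, although it passed the filter only through its injured arrays. The median log2 fold change of the 10 genes was 0.27, beside 0.00 over all genes tested. The 10 genes were chosen as a pathway with earlier results of these data known, and these counts describe them without a test of the list. In RNA from whole ganglia, more transcript per cell cannot be told apart from more cells of a type that holds it.

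**Figure D1:**
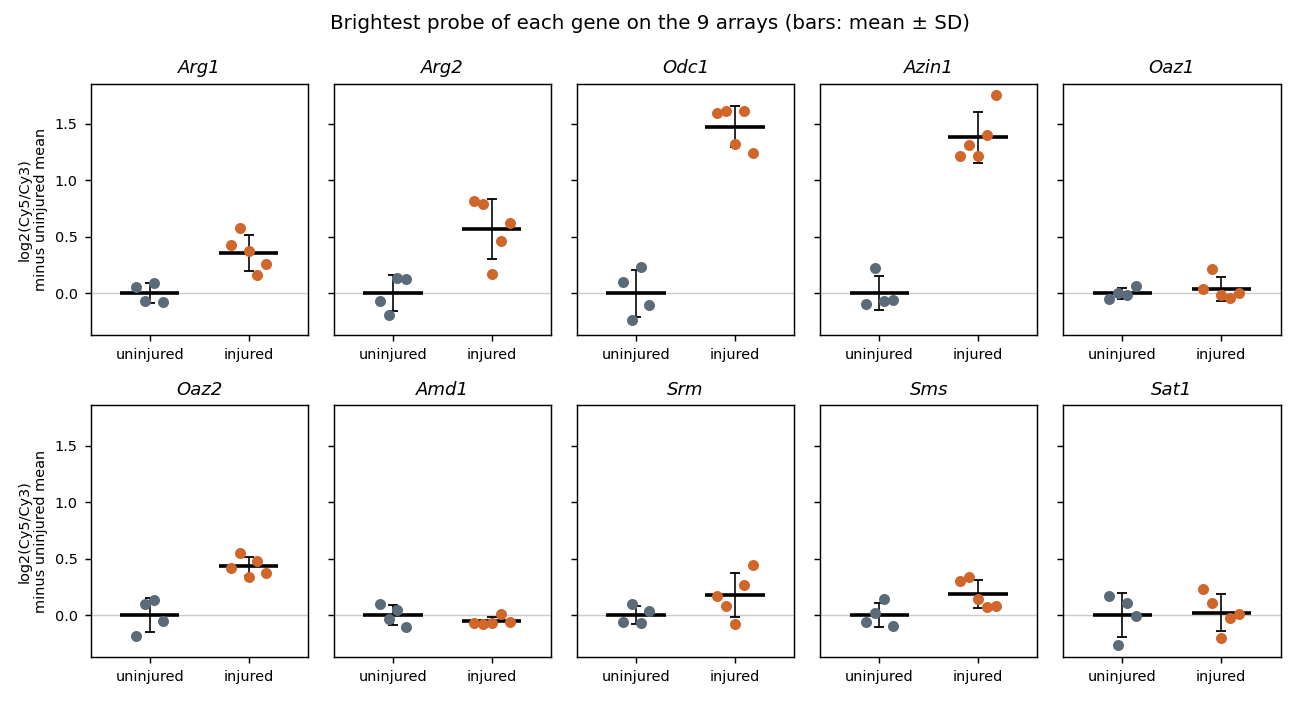
Log2 ratio of Cy5 over Cy3 of the brightest probe of each gene, minus the mean of the 4 uninjured arrays (vertical axis), for uninjured (grey) and injured (orange) DRG. Each point is 1 array, and bars give the mean ± SD. The injured points of Arg1, Arg2, Odc1, Azin1 and Oaz2 all lie above the uninjured points, and those of Oaz1, Amd1, Srm, Sms and Sat1 overlap with them.

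Arg1 encodes the cytosolic arginase, and its mRNA rose by 0.36 on the log2 scale. Its only probe (A_51_P303160, NM_007482) lies on the minus strand of chromosome 10 of mouse build mm7, from 24669046 to 24669105. The log2 ratios were −0.17, −0.30, −0.14 and −0.31 on uninjured arrays 1 to 4 and 0.20, 0.34, 0.14, −0.07 and 0.02 on injured arrays 1 to 5. Injured array 4 was the lowest of the injured arrays, and it was still above uninjured array 3, the highest of the uninjured. The means were −0.23 ± 0.0878 (SD, n = 4) and 0.13 ± 0.158 (SD, n = 5), with a standard error (SE) of the change of 0.0864 and a limma adjusted p of 0.0123 (two-sided exact permutation test on this probe alone, p = 0.0159). The spot was dim: it was well above background in Cy5 on 2 of the 4 uninjured and on all 5 injured arrays, with Cy5 intensities over local background of 12.7 to 32.5 and 31.6 to 93.2. Such values are pulled towards 0 by the offset of 50 that was added to every intensity. With an offset of 0 the log2 fold change was 1.01 (limma adjusted p = 0.00669), and with Agilent's own ratio, which adds none, it was 1.92 (limma adjusted p = 0.0202). The value was positive in 26 of the 26 alternative settings that tested the probe, and ran from 0.31 to 1.92. With slide as a fixed term the log2 fold change was 0.36 and the limma adjusted p 0.229.

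Arg1 is also known as a marker of some macrophages, so the lists of myeloid cells are given beside it. Of 12 macrophage markers 2 were called higher, Aif1 with a log2 fold change of 0.90 and Itgam, named here after its values were seen, with 0.50. At an unadjusted p under 0.05 in limma 8 of the 12 were higher and 0 lower, and the median log2 fold change of the list was 0.60, beside 0.00 over all genes. For this and the other marker lists, the share of all genes higher at the unadjusted threshold was not counted. It is at least the 11.2% called higher after adjustment. The mean of the macrophage list, relative to the uninjured mean, ran from −0.44 to 0.36 on uninjured and from 0.05 to 0.99 on injured arrays, so that the groups overlapped. Of 6 markers of alternatively activated macrophages, which are the macrophages known for Arg1, limma called 0, with 2 higher at an unadjusted p under 0.05 and 0 called without limma's pooling of variances. Chil3 had the largest change of these, 1.55 (limma adjusted p = 0.0721), and Retnla was at 0.09. Cd163, which is on both macrophage lists, had the largest fall of each, −0.25 (limma adjusted p = 0.425). Of 6 neutrophil markers tested 1, Mpo, was called, and all 6 were higher at an unadjusted p under 0.05 in limma, with a median log2 fold change of 1.48. The list mean ran from −0.51 to 0.66 on uninjured and from 0.56 to 3.18 on injured arrays. The part of these cells in the Arg1 result was not tested. Without injured array 2, the highest on these lists, the log2 fold change of Arg1 was 0.31 (limma adjusted p = 0.0230), and without injured arrays 2 and 4 it was 0.35 (limma adjusted p = 0.0235). On the 2 macrophage lists injured array 5 (0.94 and 0.88) was near array 2 (0.99 and 1.09), and array 4 was lower (0.40 and 0.25). Leaving out arrays 2 and 4 thus kept an array with high macrophage markers, and no setting left out arrays 2 and 5 together.

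Arg2 encodes the mitochondrial arginase, and its mRNA was 1.49-fold higher after injury. Its only probe (A_52_P374897, NM_009705) lies on the plus strand of chromosome 12 of mm7, from 77110462 to 77110521. The log2 ratios were 1.82, 1.70, 2.03 and 2.01 on uninjured arrays 1 to 4 and 2.70, 2.68, 2.06, 2.35 and 2.51 on injured arrays 1 to 5. Injured array 3 stood only just above uninjured array 3, and the other injured arrays were clear of the uninjured ones. The change was 0.57 on the log2 scale (SE 0.132, limma adjusted p = 0.00994, from 1.89 ± 0.159, SD, n = 4, to 2.46 ± 0.266, SD, n = 5). The Arg2 spot was well above background in Cy5 on all 9 arrays but in the Cy3 reference on 4 of the 9, so that the denominator of its ratio was weak. Cy5 alone, without the reference, gave 0.58 (limma adjusted p = 0.00193). The call was lost with the background model fitted on all spots (0.37, limma adjusted p = 0.199), with Agilent's own ratio (0.43, limma adjusted p = 0.349) and without injured arrays 2 and 4 (0.54, limma adjusted p = 0.0535), and with slide as a fixed term the value was 0.81 (limma adjusted p = 0.0350).

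Odc1, the enzyme of the first and rate-limiting step of polyamine synthesis, had the largest log2 fold change of the 10 genes in the analysis with an offset of 50 and also with an offset of 0. With Agilent's own ratio Odc1 was at 1.66, below Arg1 at 1.92. Its brightest probe (A_51_P291347, NM_013614; chromosome 12 of mm7, plus strand, 17601268 to 17601326) had log2 ratios of −1.27, −1.60, −1.14 and −1.47 on uninjured arrays 1 to 4. On injured arrays 1 to 5 they were 0.23, 0.24, −0.05, 0.24 and −0.13. The lowest injured array was thus more than 1 log2 unit above the highest uninjured array. This was a rise of 1.48 on the log2 scale (SE 0.115, limma adjusted p = 1.05e-05), from −1.37 ± 0.208 (SD, n = 4) to 0.11 ± 0.181 (SD, n = 5). The other 2 Odc1 probes, A_52_P7041 (17600319 to 17600375) and A_52_P436238 (17598312 to 17598371), rose by 1.32 (limma adjusted p = 5.49e-06) and 1.06 (limma adjusted p = 0.000982). On all 3 probes the injured arrays lay above the uninjured arrays (two-sided exact permutation test on each probe alone, p = 0.00794, the smallest p that 4 against 5 arrays can give). Under the 27 alternative settings the brightest probe stayed between 1.26 and 1.66 and was called in 27. The dimmest of the 3 probes was not called with slide as a fixed term (1.11, limma adjusted p = 0.0856).

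Azin1, the antizyme inhibitor that keeps antizyme from binding ornithine decarboxylase, had the second largest log2 fold change with either offset, and with Agilent's own ratio, at 1.41, it came after Arg1 and Odc1. Its brightest probe (A_51_P234544, NM_018745; chromosome 15 of mm7, minus strand, 38601065 to 38601124) had log2 ratios of 0.18, 0.50, 0.20 and 0.22 on uninjured arrays 1 to 4. On injured arrays 1 to 5 they were 1.49, 1.58, 1.49, 1.67 and 2.03. Uninjured array 2 stood above the other 3 uninjured arrays, and injured array 5 was the highest of all. The probe rose by 1.38 on the log2 scale (SE 0.116, limma adjusted p = 1.81e-05), from 0.27 ± 0.149 (SD, n = 4) to 1.65 ± 0.223 (SD, n = 5). It lay between 1.03, with the mean of the gene's probes, and 1.52 under the 27 alternative settings and was called in 27. With slide as a fixed term the brightest Azin1 probe was at 1.52 and that of Odc1 at 1.38, both called. The 3 Azin1 probes did not give the same size of change: A_52_P24631 (38599491 to 38599550) rose by 1.02 (limma adjusted p = 2.43e-05) and A_52_P117313 (38598353 to 38598412) by 0.69 (limma adjusted p = 0.000314). The rise of the brightest probe was larger than that of A_52_P117313 by 0.69 (two-sided exact permutation test of the difference within arrays, p = 0.00794, 0.0357 after Benjamini-Hochberg adjustment over the 18 pairs of probes of 1 gene), and by 0.59 with an offset of 0 (exact p = 0.0397, adjusted 0.102). The order of the 3 along the chromosome was the order of their changes, and their exon or UTR placement was not analysed here. It was also their order of brightness, with mean log2 intensities of 12.2, 11.3 and 7.7. The Cy3 signal of A_52_P117313 over local background was 31 to 40.6 on uninjured and 25.6 to 41 on injured arrays. The Odc1 probes also rose less the dimmer they were, while the dimmest Oaz2 probe rose most of its gene. Apart from the offset, the part of brightness was not tested. On injured array 5 the brightest probe was the highest of the injured arrays while A_52_P24631, at 1.00, and A_52_P117313, at 2.03, were the lowest. With slide as a fixed term A_52_P117313 was at 0.70 (limma adjusted p = 0.0512).

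**Figure D2:**
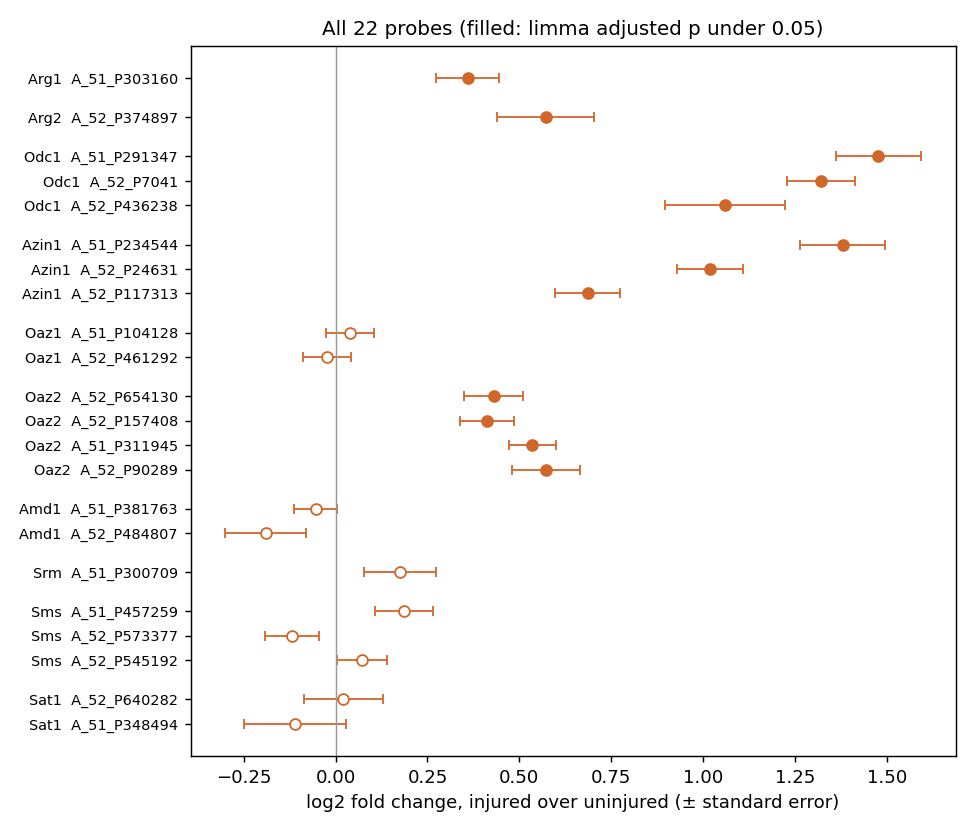
Log2 fold change of each of the 22 probes, injured over uninjured DRG (horizontal axis, ± standard error from limma), grouped by gene with the brightest probe of each gene first. Filled points passed an adjusted p of 0.05. The 3 Odc1 and 3 Azin1 probes lie between 0.69 and 1.48 and the 4 Oaz2 probes between 0.41 and 0.57, while the 10 open points lie between −0.19 and 0.19.

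The antizymes, which hold ornithine decarboxylase down, did not move as a pair. Oaz1, the most widely expressed antizyme, was called on neither of its probes, and Oaz2 was called higher on all 4 of its probes. For Oaz1 the brightest probe (A_51_P104128, AK003452; chromosome 10 of mm7, plus strand, 80618459 to 80618518) had log2 ratios of −0.02, 0.04, 0.02 and 0.10 on uninjured and 0.07, 0.25, 0.02, −0.01 and 0.04 on injured arrays. The groups overlapped, with a log2 fold change of 0.04 (95% interval −0.11 to 0.19, limma adjusted p = 0.722), and the other probe was at −0.02 (95% interval −0.17 to 0.12). The sign of both turned under several settings. For Oaz2 the brightest probe (A_52_P654130, NM_010952; chromosome 9 of mm7, plus strand, 65719427 to 65719486) had log2 ratios of 1.16, 1.44, 1.48 and 1.29 on uninjured arrays 1 to 4 and 1.76, 1.89, 1.68, 1.82 and 1.71 on injured arrays 1 to 5. The 5 injured arrays lay close together and above all uninjured arrays, with a rise of 0.43 on the log2 scale (SE 0.0794, limma adjusted p = 0.00298). The other Oaz2 probes, A_52_P157408 (65719384 to 65719443), A_51_P311945 (65718988 to 65719047) and A_52_P90289 (65717613 to 65718519), rose by 0.41, 0.54 and 0.57, each with every injured array above every uninjured one. With slide as a fixed term the brightest probe was at 0.63 and still called. With each array centred on its median in place of the loess correction the Oaz2 call was lost (0.34, limma adjusted p = 0.193), and 3 of the 4 probes did not pass.

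The genes were also set against each other within each array, where a shift of a whole array cancels. The 6 pairs were chosen by function, and p-values were adjusted over the 6. Odc1 rose more than Oaz1 by 1.44 log2 units (two-sided exact permutation test, p = 0.00794, adjusted 0.0238), with the difference on 5 of 5 injured arrays above that on every uninjured array. Oaz1 changed less than Oaz2 by 0.39 in the same test (exact p = 0.00794, adjusted 0.0238), on 5 of 5 injured arrays. On these probes the 2 antizyme mRNAs therefore differed in their change by more than the spread between arrays. The test took no account of slide. The probes also differed in brightness, with a mean log2 intensity of 15.4 for Oaz1 and 12.9 for Oaz2. A bias that follows brightness does not cancel within an array, and its part was not tested. Odc1 and Azin1 differed in their change by 0.10 (exact p = 0.627, adjusted 0.752), a difference that these arrays could not show against an SD of 0.337 (n = 4) and 0.357 (n = 5) within the groups. The change of Arg1 minus that of Arg2 was −0.21 (exact p = 0.159, adjusted 0.317) and turned to 0.23 with an offset of 0. The pairs Srm and Sms (−0.01, exact p = 0.944) and Amd1 and Sat1 (−0.08, exact p = 0.508, adjusted 0.752) did not pass either.

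**Figure D3:**
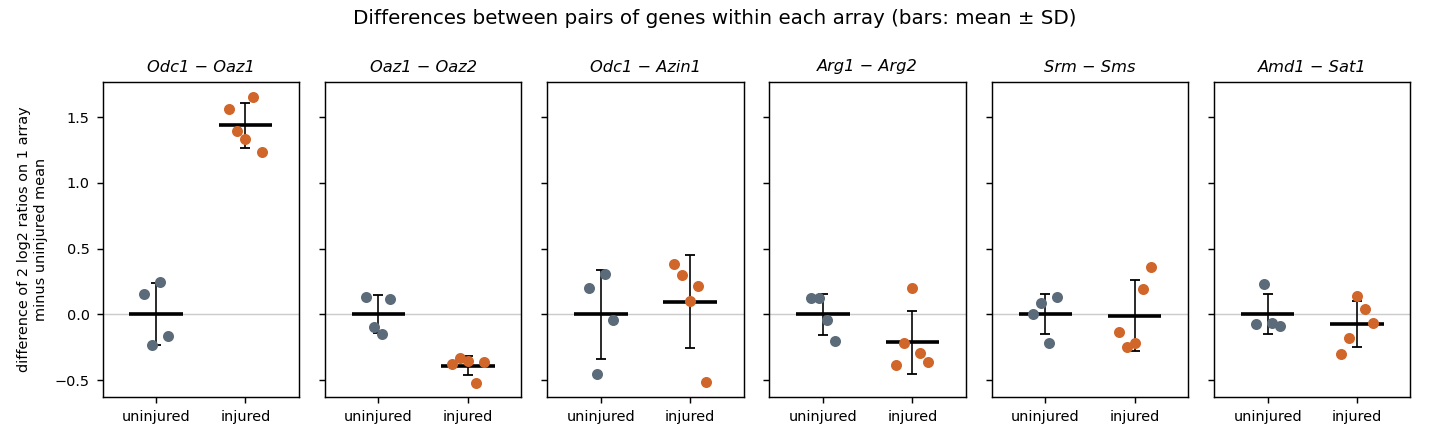
Difference between the log2 ratios of 2 genes on the same array, minus the mean of that difference on the 4 uninjured arrays (vertical axis), for the 6 pairs in uninjured (grey) and injured (orange) DRG. Each point is 1 array, and bars give the mean ± SD. The injured points of Odc1 minus Oaz1 lie above and those of Oaz1 minus Oaz2 below all uninjured points, and the other 4 pairs overlap.

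Among the 10 genes, the enzymes downstream of ornithine decarboxylase, Amd1, Srm, Sms and Sat1, were not called. Amd1, which decarboxylates S-adenosylmethionine to supply the aminopropyl groups, had log2 ratios of 0.08, −0.06, 0.03 and −0.12 on uninjured and −0.09, −0.10, −0.08, 0.00 and −0.08 on injured arrays with its brightest probe (A_51_P381763; chromosome 10 of mm7, 40074792 to 40074851). The log2 fold change was −0.05 (95% interval −0.19 to 0.08, limma adjusted p = 0.566), and −0.19 (−0.43 to 0.05) on the other probe. A probe of Amd2, a near-identical copy of Amd1, is placed by the files beside the Amd1 probes, from 40076544 to 40076603, and was at −0.24 (limma adjusted p = 0.122). Which of the copies these 3 probes measured was not tested.

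Srm, spermidine synthase (A_51_P300709; chromosome 4 of mm7, plus strand, 147583866 to 147583925), had log2 ratios of −1.23, −1.07, −1.24 and −1.13 on uninjured and −0.995, −1.08, −1.24, −0.90 and −0.72 on injured arrays. Injured array 3 lay below every uninjured array and injured arrays 1, 4 and 5 above them all, and the log2 fold change was 0.18 (95% interval −0.04 to 0.39, limma adjusted p = 0.230). Sms, spermine synthase, had log2 ratios of −1.001, −0.92, −0.79 and −1.03 on uninjured and −0.63, −0.60, −0.79, −0.86 and −0.85 on injured arrays with its brightest probe (A_51_P457259; chromosome X of mm7, minus strand, 152220136 to 152220195). Its log2 fold change was 0.19 (95% interval 0.01 to 0.36), with an unadjusted p of 0.0376 in limma that did not pass after adjustment (adjusted p = 0.116). The 3 Sms probes did not point one way: A_52_P573377 was at −0.12 and A_52_P545192 at 0.07, and the brightest probe changed more than A_52_P573377 by 0.31 (exact permutation test within arrays, p = 0.00794, adjusted over the 18 probe pairs 0.0357, and 0.102 with an offset of 0). The dimmest of them, A_52_P545192, was called with no background correction (0.20, limma adjusted p = 0.0470) and with Agilent's own ratio (0.33, limma adjusted p = 0.0463), and was at −0.01 with slide as a fixed term.

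Sat1, the acetyltransferase that starts the breakdown and export of spermidine and spermine (A_52_P640282; chromosome X of mm7, minus strand, 150014127 to 150014157), had log2 ratios of 0.22, −0.22, 0.15 and 0.03 on uninjured and 0.28, 0.15, −0.16, 0.02 and 0.05 on injured arrays. The 2 groups overlapped over most of their range, with a log2 fold change of 0.02 (95% interval −0.22 to 0.26, limma adjusted p = 0.915) and of −0.11 (−0.42 to 0.19) on the other probe, A_51_P348494. A rise as large as that of Odc1 lies outside the 95% intervals of all 10 uncalled probes, which span −0.43 to 0.39 in all. Smaller changes of Srm, Sms, Amd1 and Sat1 could not be shown or set aside with these 9 arrays.

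In the reference channel, which held the same RNA on every array, 0 of the 22 probes were called between groups by limma, and 1 passed an unadjusted p under 0.05. This was the brightest Odc1 probe, whose Cy3 signal was lower on injured arrays by 0.14 log2 units (unadjusted p = 0.00168 and adjusted p = 0.230 in limma). Over all 31186 probes tested, limma called 30 in this channel, and 2793 passed an unadjusted p under 0.05. The reference signal thus differed between groups on some probes, and the cause was not tested. With Cy5 alone all 5 genes were called.

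Promoter sequence was looked at where a window was given. RefSeq windows of 300 bases (250 before to 50 after the gene start, build GRCm38.p6) were given for 6 of the 10 genes, Odc1, Oaz1, Oaz2, Amd1, Sms and Sat1, in 7 windows. Of the 5 genes called, Odc1 and Oaz2 are among them. The 250 bases before the start are printed 5′ to 3′ on the strand of the gene for Odc1 (chr12:17544623-17544872, plus strand), Oaz2 (chr9:65676298-65676547, plus strand), Oaz1 (chr10:80826406-80826655, plus strand) and for the second Sms window (chrX:157492288-157492537, minus strand), the 1 window with a motif that was searched, in capitals.
Odc1: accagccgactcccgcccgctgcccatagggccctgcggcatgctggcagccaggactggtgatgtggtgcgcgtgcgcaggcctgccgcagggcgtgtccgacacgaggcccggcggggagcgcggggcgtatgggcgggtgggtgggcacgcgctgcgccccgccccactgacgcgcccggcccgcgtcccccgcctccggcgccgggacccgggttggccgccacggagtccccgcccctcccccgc
Oaz2: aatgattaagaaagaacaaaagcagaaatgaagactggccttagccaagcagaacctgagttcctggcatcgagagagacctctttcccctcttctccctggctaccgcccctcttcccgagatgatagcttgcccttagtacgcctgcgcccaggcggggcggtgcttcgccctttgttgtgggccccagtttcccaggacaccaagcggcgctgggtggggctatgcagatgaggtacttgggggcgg
Oaz1: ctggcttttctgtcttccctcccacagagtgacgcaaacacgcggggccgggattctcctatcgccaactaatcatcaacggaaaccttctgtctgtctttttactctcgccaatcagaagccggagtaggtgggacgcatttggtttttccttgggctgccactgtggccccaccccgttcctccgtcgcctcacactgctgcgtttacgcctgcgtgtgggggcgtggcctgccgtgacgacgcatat
Sms: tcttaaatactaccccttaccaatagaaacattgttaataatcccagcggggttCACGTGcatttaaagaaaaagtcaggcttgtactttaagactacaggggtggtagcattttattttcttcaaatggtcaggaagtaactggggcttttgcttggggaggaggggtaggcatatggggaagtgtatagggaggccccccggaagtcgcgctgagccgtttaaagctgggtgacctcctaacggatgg
The Odc1 stretch was 80.0% G and C, against 58.0% for both antizymes and 47.2% for the second Sms window. Both strands were searched for the E-box CACGTG, the letters bound by Myc and related factors, and for the AP-1 element TGANTCA, the CRE TGACGTCA and the C/EBP-ATF element TGATGNAA, which Jun, CREB and ATF4 family members bind. The E-box was in 1 of the 7 windows, at −196 from the second Sms start, and in 7.15% of all 32851 windows of the same length. The AP-1, CRE and C/EBP-ATF letters were in 0 of the 7 windows and in 7.81%, 1.79% and 3.97% of all windows. This describes only these windows, and says nothing of sites elsewhere.

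Beyond the 10 genes, 48 further genes of the pathway were taken from 5 lists made by function, and 42 of them had a probe past the filter. Of these 42, 18 were called (42.9%, beside 24.9% of all genes), 9 higher and 9 lower, with a median log2 fold change of −0.07. The count was 6 with median centring (14.3%, beside 12.3% of all genes), and 12 without injured arrays 2 and 4 (28.6%, beside 14% of all genes). A fixed slide term left 2 calls, Slc7a3 and Slc25a29 (4.76%, beside 5.34% of all genes), so that the share was no longer above that of all genes. Satl1, Mat1a, Slc25a15, Slc22a3, Otc and Nos2 had no probe past the filter.

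Among further regulators and catabolic enzymes of polyamines, 2 of 6 rose and 1 fell, beside 11.2% of all genes called higher and 13.6% lower. Azin2, the second antizyme inhibitor, rose by 0.55 (limma adjusted p = 0.0115), so that both antizyme inhibitors were called higher. Smox, which oxidises spermine back to spermidine, rose by 0.39 (limma adjusted p = 0.00458) on its brightest probe, and its other probe was at 0.09 (limma adjusted p = 0.631). Sat2, a relative of Sat1 that acts mainly on thialysine, fell by 0.24 (limma adjusted p = 0.0440). Without injured arrays 2 and 4 Azin2 (adjusted p = 0.0568) and Sat2 (adjusted p = 0.186) no longer passed in limma. The Sat2 call was also lost on leaving out any 1 array other than injured array 5 (highest limma adjusted p = 0.120).

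Spermidine is also the substrate for hypusine, a modified lysine found in the translation factor eIF5A. Of 4 genes in this list 1 rose and 1 fell, beside 11.2% of all genes called higher and 13.6% lower. Eif5a rose by 0.29 (limma adjusted p = 0.00477), and Eif5a2, its second copy, fell by 0.34 (limma adjusted p = 0.0345). The second probe of each gene was called in the same direction, at 0.26 for Eif5a and −0.26 for Eif5a2. With median centring the call of the brightest Eif5a probe was lost (0.16, limma adjusted p = 0.458). The call of the brightest Eif5a2 probe was lost without injured arrays 2 and 4 (−0.32, limma adjusted p = 0.147), with the log2 ratios as deposited (−0.33, limma adjusted p = 0.0582), and on leaving out any 1 array other than uninjured arrays 2 and 3 and injured array 5 (highest limma adjusted p = 0.0936). The 2 enzymes that make hypusine, Dhps (0.18) and Dohh (−0.10), were not called.

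Of 8 genes of the methionine cycle and of methylthioadenosine salvage, 2 rose and 3 fell, beside 11.2% of all genes called higher and 13.6% lower. Ahcy, which hydrolyses S-adenosylhomocysteine, rose by 0.64 (limma adjusted p = 0.000356) and on all 3 of its probes, by 0.61 to 0.68. Mat2a, the catalytic subunit that makes S-adenosylmethionine, rose by 0.41 (limma adjusted p = 0.000565), and Mat2b, its regulatory subunit, named here after its values were seen, fell by 0.40 (limma adjusted p = 0.00218). The salvage enzymes Enoph1 (−0.55, limma adjusted p = 0.0151) and Mtap (−0.42, limma adjusted p = 0.00974) were lower, and the Enoph1 call was lost without injured arrays 2 and 4 (−0.59, limma adjusted p = 0.0570). This salvage path recycles the methylthioadenosine that spermidine and spermine synthesis leave behind. With median centring the calls of Ahcy (0.54, limma adjusted p = 0.0603), Mat2a (0.28, limma adjusted p = 0.208) and Enoph1 (−0.64, limma adjusted p = 0.0888) were lost.

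Of 9 transport genes 4 rose and 2 fell, beside 11.2% of all genes called higher and 13.6% lower. Slc7a3, a cationic amino acid transporter that carries arginine and lysine, had the largest change of the 42, a rise of 1.16 on the log2 scale (SE 0.0940, limma adjusted p = 1.42e-05), from −0.45 ± 0.194 (SD, n = 4) to 0.71 ± 0.103 (SD, n = 5). It was one of the genes still called with slide as a fixed term and with median centring. Slc3a2, the heavy chain of several amino acid transporters, rose by 0.51 (limma adjusted p = 0.00223), and Atp13a4 and Atp13a3, P-type transporters named here after their values were seen, by 0.48 and 0.46. The mitochondrial carrier Slc25a29 fell by 0.51 (limma adjusted p = 0.000205) on its brightest probe, with its other probe at −0.03, and the vesicular polyamine transporter Slc18b1 fell by 0.25 (limma adjusted p = 0.0313). The Slc18b1 call was lost without injured arrays 2 and 4 (−0.20, limma adjusted p = 0.178) and on leaving out any 1 array other than uninjured array 2 and injured arrays 3 and 5 (highest limma adjusted p = 0.0966).

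Of 15 genes that use arginine or ornithine in other ways, 2 fell and limma called 0 higher (1 at an unadjusted p under 0.05, 0 without the pooling of variances). Over all genes 13.6% were called lower and 11.2% higher, so that the 2 falls lay near the share of all genes. Ass1, which makes argininosuccinate on the way to arginine, fell by 0.34 (limma adjusted p = 0.0328), with 2 probes alike. Its call was lost without injured arrays 2 and 4 (−0.32, limma adjusted p = 0.128) and on leaving out any 1 array other than uninjured array 3 and injured array 5 (highest limma adjusted p = 0.0880). Aldh4a1, of proline breakdown, was at −0.25 (limma adjusted p = 0.00840) on its brightest and at 0.11 on its other probe. The ornithine aminotransferase Oat was at 0.05 (limma adjusted p = 0.699), and Nos2, the inducible nitric oxide synthase that competes with arginase for arginine, was well above background on none of the arrays in Cy5.

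**Figure D4:**
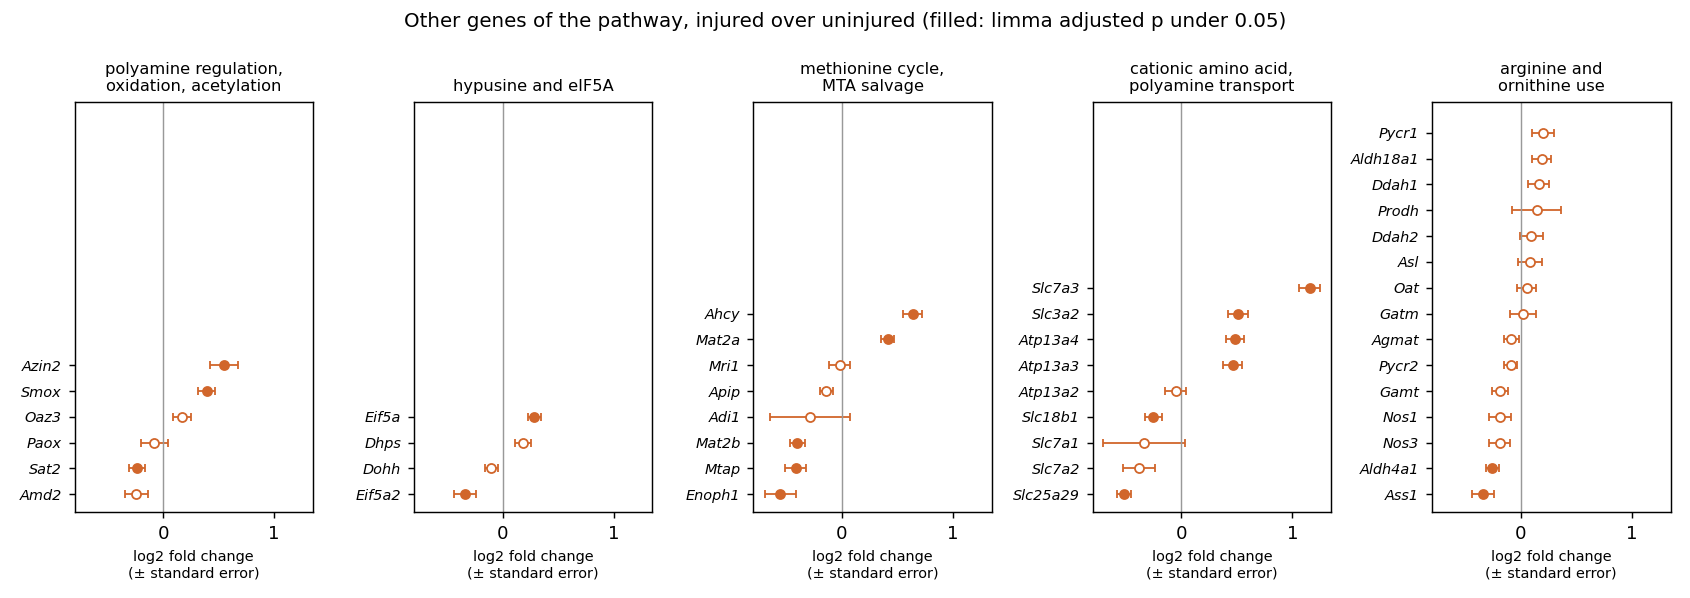
Log2 fold change, injured over uninjured DRG, of the brightest probe of each of the 42 other pathway genes tested (horizontal axis, ± standard error from limma), in 5 panels by list, where MTA is methylthioadenosine. Filled points passed an adjusted p of 0.05. Slc7a3, at 1.16, stands apart from the rest, which lie between −0.55 and 0.64, and no gene in the panel of arginine and ornithine use is filled on the right.

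The genes whose pattern over the 9 arrays was nearest to those of Odc1 and Azin1 were found by the root mean square difference of their log2 ratios, each relative to its uninjured mean, over the other 20897 genes. For Odc1 they were Serpinb1c (root mean square difference 0.0958 log2 units), Tmem159 (0.110), Rgs20 (0.112), Fam111a (0.128) and Kprp (0.138), with log2 fold changes of 1.40 to 1.54. For Azin1 they were Arid5a (0.111), St6galnac4 (0.129), Sbno2 (0.142), Itga7 (0.145) and Slc29a2 (0.146), with log2 fold changes of 1.27 to 1.50. The measure follows the size of the change and shares the same arrays, and it describes likeness alone.

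**Figure D5:**
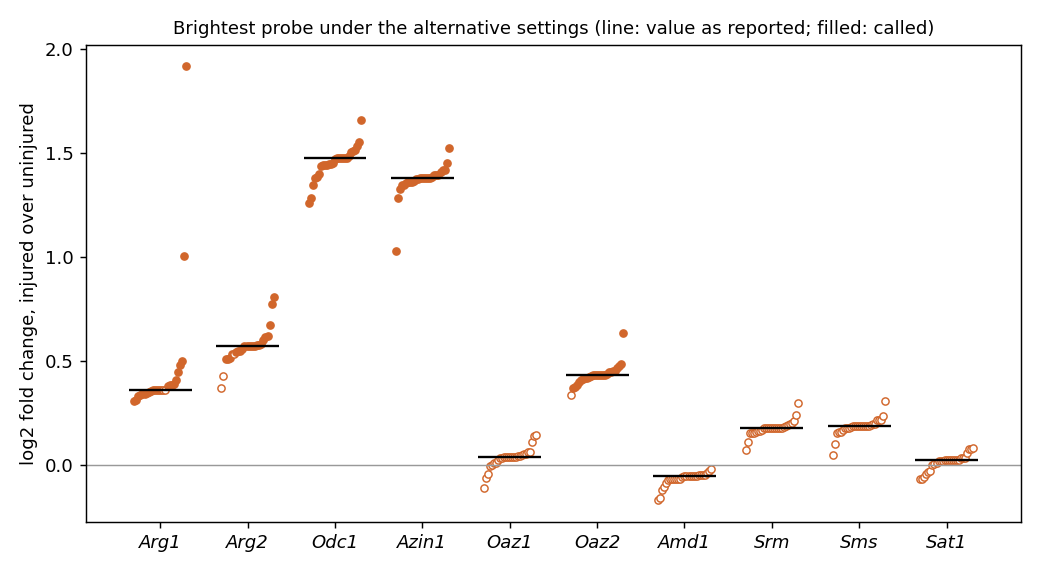
Log2 fold change, injured over uninjured DRG (vertical axis), of the brightest probe of each gene as reported (black line) and under each alternative setting (points, ordered by value within a gene; filled where called). Odc1 and Azin1 stayed above 1 and were filled throughout, Arg1 spread from 0.31 to 1.92, and the values of Oaz1 and Sat1 lay on both sides of 0.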

How the data were processed

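RNA of DRG samples (Cy5) and a universal mouse reference (Cy3) was hybridised to 2-colour Agilent arrays without dye swap. The deposited scanner files hold spot intensities and a log10 ratio, made by Agilent's Feature Extraction, with probe positions in build mm7 per the file headers. The authors also deposited log2 ratios, made with limma per the submitters' processing notes (version not given in the sources used here). The ratios computed here had slopes of 1.00 to 1.01 on these deposited log2 values, which settled their scale and direction, and their centring is not stated (column medians 0.0202 to 0.0240).

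Groups came from the labels. Intensities were background-corrected with normexp (limma 3.58.1, R 4.3.3, offset 50), fitted without 29 spots flagged for uneven local background, which were left out, normalized by loess within arrays with control spots at weight 0, and averaged over repeated spots of a probe. Probes that 4 or more arrays measured well above background in Cy5 (31186 of 41174) were fitted with lmFit and eBayes over all 9 arrays, with Benjamini-Hochberg adjustment over all of them (threshold 0.05). A gene was represented by its brightest probe (20898 genes). Single values were tested by exact permutation over the 126 splits of the arrays. Symbols came through accessions for 22951 probes, current symbols for 6659, older names for 3109 and the name in the file for 8455. Only the limma fit was tested on simulated data, with independent noise and few changed probes. Background correction, normalization, the filter, slide and the permutation tests were not part of that test. The number of arrays limits the precision.

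Named are the 10 genes with every probe, of each other pathway list the called genes (where more than 4 were called, the 2 largest rises and falls) and those not tested, of marker lists the largest rise and fall, and the 5 nearest genes of the 2 members that changed most. Members, lists and tests were chosen with earlier results of these data known, and differences between probes of 1 gene and the omission of injured arrays 2 and 4, or of spots of uneven brightness, were added after the data were seen. Alternatives are given in the closing section.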

Additional observations from a re-analysis of the deposited data

Results flagged for a closer look

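Of 74 groups of 4 or 5 arrays tested among the probes named above, 6 held 1 array that stood apart from the others by Dixon's test, where chance flags about 1 in 20 groups. The brightest Azin1 probe was at a log2 ratio of 0.495 on uninjured array 2, above the other uninjured arrays and below all injured ones. The 2 Amd1 probes each had 1 injured array above the rest, injured array 4 at −0.00453 on A_51_P381763 and injured array 1 at −0.435 on A_52_P484807. Among the other pathway genes Slc3a2 was at −1.14 on uninjured array 3, Mtap at −2.27 on uninjured array 2 and Sat2 at 1.20 on uninjured array 4.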

How the results depend on the processing

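Of the 10 genes, 5 were called in the main analysis and without each array in turn (lowest 5, highest 5). A filter for signal in both channels on all arrays left Arg1 and Arg2 untested, with 3 called. Odc1 and Azin1 were called under every setting run. The count of all probes called, 7337 (44.6% higher), was 3521 (37.3% higher) with median centring, 1507 (55.5% higher) with slide as a fixed term, 3952 at an adjusted p under 0.01, 4036 without injured arrays 2 and 4, and 5353 to 7485 without each array in turn. The other pathway genes called, 18, were 6 with median centring, 2 with slide as a fixed term, and 14 to 22 without 1 array. The causes were not tested.

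Small changes turned sign. Oaz1 was at −0.042 with an offset of 0, −0.11 with median centring, −0.064 with Cy5 alone and −0.0047 (without injured array 2) to 0.061 without 1 array. Its dimmer probe was at 0.042 with Agilent's ratio, 0.13 with slide as a fixed term and −0.061 to 0.00012 without 1 array. Sms probe A_52_P545192 was at −0.0066 with slide as a fixed term. Sat1 was at −0.068 with median centring, −0.058 with slide as a fixed term, −0.036 with array weights, −0.045 with the mean of its probes, and −0.068 to 0.079 without 1 array. The change of Arg1 minus that of Arg2 was 0.23 with an offset of 0. Without 1 array, Odc1 minus Oaz1 was 1.36 to 1.52 and Oaz1 minus Oaz2 −0.44 to −0.35, where the adjusted exact p could not go below 0.0536. Srm minus Sms was then −0.10 to 0.049, Odc1 minus Azin1 −0.055 to 0.25 and Amd1 minus Sat1 −0.13 to 0.0013.

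No paired analysis was possible because neither animals nor replicate numbers stand in the labels, and the array numbers used here follow the order of deposit.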
